A study of Rattus norvegicus with 5 samples.

Results

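Among the fibroblasts of irradiated and control rat skin, the cells described here carried at least 2 transcript molecules of Cyp26b1, the enzyme that degrades retinoic acid. Of 43408 barcodes kept from 5 single-cell libraries (500 or more UMIs, 300 or more genes and no more than 20% mitochondrial UMIs), 11780 passed a fibroblast gate and 805 of these were members. A UMI is a unique molecular identifier and stands for 1 captured mRNA molecule. The gate asked for at least 0.5% of UMIs from Col1a1, Col3a1 and Dcn, a smaller share from 6 keratins, no Ptprc UMI, and fewer than 2 UMIs each of Slc26a7 and of Edn3 plus Rspo3, a filter that takes out other fibroblast kinds (Edn3 and Rspo3 are known from the dermal papilla of the hair follicle). The skin came from SD rats, and per the study's methods from males bought at an age of 4 weeks, whose shaved buttock received a single electron-beam dose with lead around the field. Control skin was not irradiated, and the other libraries carry the labels irradiated 7, 14, 28 and 60 days. The methods describe no collection at 60 d, and the labels give neither the dose nor the number of rats behind a library. Each group was 1 library, which allows no test between groups, and day, animal and library cannot be told apart.

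Retinoic acid, made from vitamin A, enters the nucleus and drives transcription through its receptors, and CYP26 enzymes clear it so that cells which express them keep the local level low. The papillary dermis is the layer of fibroblasts directly under the epidermis. Its cells secrete the anchoring and basement membrane collagens of the junction and exchange Wnt signals with the basal keratinocytes, while fibroblasts of the deeper reticular and adventitial layers make the coarse matrix and carry genes such as Pi16, Cd34 and Dpt. The markers proposed for the Cyp26b1 fibroblasts were Apcdd1, a membrane inhibitor of Wnt signalling, Crabp1, which binds retinoic acid in the cytoplasm, Mmp3, the protease stromelysin, and Igfbp2, a carrier of insulin-like growth factors.

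All 5 marker genes matched an entry in the RefSeq promoter set of build GRCr8, which is a later build than the Rnor_6.0 assembly named in the submitters' processing notes. The 250 bases before the annotated start are shown for Cyp26b1, Crabp1 and Mmp3, because these 3 windows hold an AP-1 motif. Capitals mark exact matches, on either strand, to AP-1 (TGANTCA), TCF/LEF (CTTTGA), the retinoic acid receptor half-site (AGGTCA), the TATA box (TATAAA) and the GC box (GGGCGG). The Cyp26b1 window lies at chr4:118616177-118616426 on the minus strand, the Crabp1 window at chr8:64047181-64047430 on the plus strand and the Mmp3 window at chr8:12925031-12925280 on the plus strand.
Cyp26b1: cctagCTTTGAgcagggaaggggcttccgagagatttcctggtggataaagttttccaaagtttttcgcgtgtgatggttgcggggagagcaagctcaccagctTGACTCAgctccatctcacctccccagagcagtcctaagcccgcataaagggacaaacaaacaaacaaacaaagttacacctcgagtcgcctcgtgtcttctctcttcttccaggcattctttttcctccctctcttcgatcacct
Crabp1: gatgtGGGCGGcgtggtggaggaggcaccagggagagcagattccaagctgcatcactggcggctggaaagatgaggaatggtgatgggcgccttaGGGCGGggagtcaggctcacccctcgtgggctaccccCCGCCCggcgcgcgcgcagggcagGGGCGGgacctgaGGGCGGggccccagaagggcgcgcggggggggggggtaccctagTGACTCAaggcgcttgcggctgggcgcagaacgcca
Mmp3: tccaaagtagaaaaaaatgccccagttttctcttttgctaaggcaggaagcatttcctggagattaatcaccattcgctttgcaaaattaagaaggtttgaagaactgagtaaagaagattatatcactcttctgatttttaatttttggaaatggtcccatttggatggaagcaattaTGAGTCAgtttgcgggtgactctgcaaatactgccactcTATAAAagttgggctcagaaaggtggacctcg

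The AP-1 letters begin 146 bases before the start in Cyp26b1, 36 bases in Crabp1 and 71 bases in Mmp3. They occur in 6.34% of 33469 promoter windows of the same length. TCF/LEF letters, present in 13.9% of windows, were found at Cyp26b1 and Apcdd1, GC boxes (30.5%) at Crabp1, Apcdd1 and Igfbp2, and the TATA box (12.9%) at Mmp3, 32 bases before its start. No window of the 5 markers held the retinoic acid half-site, which 14.1% of windows hold. No matches overlap within a printed window. These matches are letters in a window and were not tied to binding of any factor.

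Cyp26b1 fibroblasts made up 149 of 3453 gated fibroblasts of the control library (4.32%, 95% Clopper-Pearson interval 3.66 to 5.05). The irradiated libraries held 569 of 6999 at 7 d (8.13%, 7.50 to 8.79), 10 of 97 at 14 d (10.3%, 5.06 to 18.1), 47 of 626 at 28 d (7.51%, 5.57 to 9.86), then 30 of 605 at 60 d (4.96%, 3.37 to 7.00). All intervals here cover counting error only, not the spread between animals. The 7 d and 28 d shares lay above the control interval, the 60 d share lay inside it, and the 14 d interval reached from the upper control bound to more than any other share. Without the cells that carry mural markers the shares of control, 7 d and 28 d were 3.56%, 6.64% and 4.50%, and at 14 d a gate of 2% matrix UMIs in place of 0.5% gave 3.28%. Because the rule counts UMIs, each cell was also thinned to 2000 UMIs and scored for at least 1 Cyp26b1 UMI. In the order control, 7, 14, 28 and 60 d the shares were then 3.93%, 7.88%, 15.2%, 8.51% and 4.06%, after leaving out 500, 1099, 18, 97 and 88 shallower cells. Members had a median of 12640 UMIs in control and 11159 at 7 d, against 11401 and 8433.5 in gated fibroblasts with no Cyp26b1 UMI. Outside the gate, 2 or more Cyp26b1 UMIs were found in 4.01% of keratinocyte barcodes in control and 4.82% at 7 d (median depths 17819 and 10846 UMIs). Among barcodes with Ptprc, the pan-leukocyte gene, these shares were 0.413% in control and 0 of 262 at 7 d, which allows up to 1.40% (median 5331.5 and 6242 UMIs). The control share of 4.32% lay inside the interval of the control keratinocytes (2.21 to 6.64%), and the keratinocyte barcodes were deeper than gated fibroblasts (median 11541 UMIs). At 7 d the fibroblast share lay within the wide interval of 83 keratinocyte barcodes (1.33 to 11.9%). Thinned to 2000 UMIs, keratinocytes were at 3.38% in control and 2.74% at 7 d (0.334 to 9.55%), against 3.93% and 7.88% of gated fibroblasts. Per UMI, Cyp26b1 stood at 24.7 and 81.3 CPM (UMIs scaled to a total of 1000000) over gated fibroblasts of control and 7 d, against 14.3 and 29.7 CPM over keratinocyte barcodes, with intervals that did not meet. Of the 48 Cyp26b1 UMIs in keratinocyte barcodes of 7 d, 79.2% lay in 1 barcode, a spread that the interval does not cover.

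**Figure D1:**
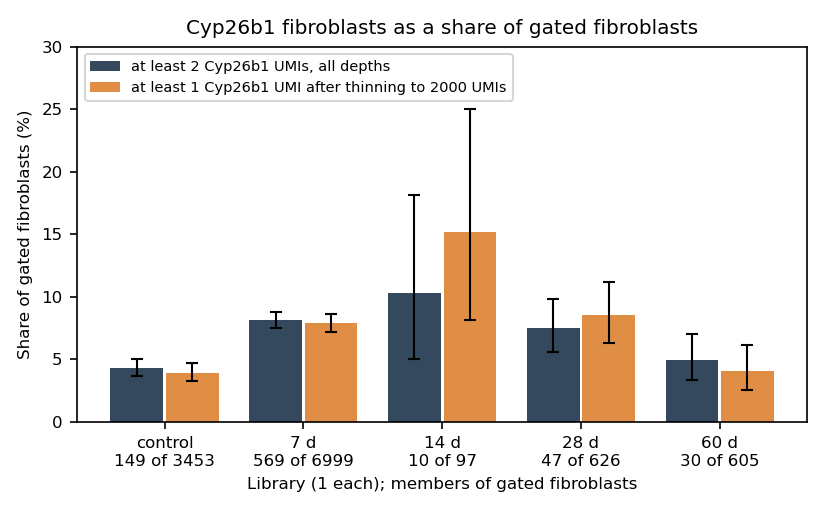
Share of gated fibroblasts (%) that carried Cyp26b1, by library, under the rule of at least 2 UMIs (dark bars) and with at least 1 UMI after thinning each cell to 2000 UMIs (orange bars). Error bars are 95% Clopper-Pearson intervals for counting error. Both measures were higher at 7 d (8.13% and 7.88%) than in control (4.32% and 3.93%).

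The number of Cyp26b1 UMIs chose the members and is a description only. In the order control, 7, 14, 28 and 60 d, its median in a member was 3, 4, 6.5, 4 and 3, and the highest cell held 33, 68, 62, 114 and 67 UMIs. As CPM over all members of a library, Cyp26b1 stood at 387, 664, 2511, 901 and 656 in that order. Just inside the limit, with exactly 2 UMIs, lay 48 of the control members and 159 of those at 7 d, and just outside it, with 1 UMI, lay 186 and 530 gated fibroblasts. The barcodes of 9 of the 805 members also occur among kept barcodes of another library, and no barcode was a member in more than 1 library.

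The rule gathered more than 1 kind of cell. With at least 3 UMIs over 10 markers of mural cells, the pericytes and smooth muscle that wrap vessels, 35 of 149 control members were mural-marked (23.5%). The irradiated libraries had 143 of 569 marked at 7 d (25.1%), 3 of 10 at 14 d, 22 of 47 at 28 d (46.8%), then 3 of 30 at 60 d. In gated fibroblasts without Cyp26b1, in the order control, 7, 14, 28 and 60 d, the share was 6.61%, 6.41%, 11.4%, 7.54% and 5.95%. This mark was set after the data had been seen. The marked members of control had a median of 0.723% of UMIs from the 3 matrix genes of the gate, and the unmarked ones 7.72%. At 7 d these medians were 1.89% and 7.95%. The 10 mural genes summed in members to 517, 564, 6076, 2502 and 85.4 CPM in that order, against 92.2, 169, 461, 506 and 87.8 CPM in the fibroblasts without Cyp26b1. Rgs5 and Des, pericyte and smooth muscle genes, belong to the list that set the mark. Rgs5 was at 601 CPM in the 143 marked cells of 7 d and Des at 869.5 CPM. Among doublet scores, 10.1% of control members and 12.3% of those at 7 d fell in the top 6% of their library, against 6.74% and 6.12% without Cyp26b1. No such excess was seen in the other libraries, with 0 of 10 members at 14 d, 4.26% at 28 d and 0 of 30 at 60 d, against 7.59%, 4.23% and 4.50%. The part of these mural-marked cells and of doublets in the other results was not tested beyond leaving them out. Ratios without mural-marked cells leave them out of both groups.

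Markers of further lineages were read in the same way, in the order control, 7, 14, 28 and 60 d. The 8 skeletal muscle markers, which share Des with the mural list, summed to 205, 238, 2295, 662 and 24.4 CPM in members against 36.2, 58.5, 142, 169 and 45.8 CPM without Cyp26b1. Without mural-marked cells the members were at 16.4, 21.0, 0, 18.3 and 17.1 CPM. The 9 endothelial markers stood at 36.9, 40.5, 189, 83.3 and 33.6 CPM against 22.9, 41.1, 9.08, 20.7 and 12.9 CPM, and without mural-marked cells the members were at 21.4, 30.4, 0, 22.8 and 34.2 CPM. Of the unmarked members, those of 60 d thus stood furthest above the other fibroblasts, though the intervals met (16.4 to 62.8 and 9.85 to 16.6 CPM). The unmarked members of 28 d were close to the other fibroblasts. The 14 immune markers were at 19.2, 62.8, 0, 33.8 and 6.10 CPM in members and 49.7, 85.8, 36.3, 54.7 and 6.67 CPM without Cyp26b1.

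The keratinocyte list reached 1546, 1285, 783, 662 and 805 CPM in members in that order, beside 1399, 1119, 647, 1310 and 1732 CPM in fibroblasts without Cyp26b1, so that members were lower at 28 and 60 d. Without mural-marked cells the members were at 1612, 1042, 1665, 689 and 834 CPM. The 7 unmarked members of 14 d (1228 to 2208 CPM) thus stood above the other fibroblasts of 14 d (581 to 717 CPM). The fibroblast list itself, with all 9 genes found, stood at 22568 CPM in control members and 23878 CPM at 7 d. At 14, 28 and 60 d it was at 8560, 12257 and 10420 CPM, below the 17674.5, 18264 and 18747 CPM of the other fibroblasts. Mfap4 of the list had no UMI in the members of 14 d, and the unmarked ones among them held 3816 CPM of the list. The 10 Schwann cell markers were at 1632 against 1044 CPM at 60 d, where 1 cell held 62.6% of these UMIs and 610.0 CPM remained without it. They were lower in members than in the other fibroblasts in the remaining 4 libraries. In control members Sox10 and Cdh19 of that list had no UMI.

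Of the proposed markers, Apcdd1, Crabp1 and Igfbp2 were higher in the Cyp26b1 fibroblasts of each library with at least 30 members, and Mmp3 was not. Apcdd1 stood at 95.1 CPM in control members (95% Poisson interval 82.0 to 109.7) and at 388, 122, 151 and 415 CPM at 7, 14, 28 and 60 d. Without a Cyp26b1 UMI it was at 24.8, 28.6, 29.1, 49.6 and 35.5 CPM, so the intervals of the groups did not meet in any library. Its log2 ratio averaged 2.71 ± 1.10 (SD, n = 4 libraries). Of its 136 UMIs at 60 d, 38.2% lay in 1 cell, and 256 CPM remained without it.

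Crabp1 was at 488 CPM in control members and at 1228, 54.0, 723 and 268 CPM at 7, 14, 28 and 60 d. Fibroblasts without Cyp26b1 had 291, 252, 38.1, 106 and 142 CPM. Its ratio was largest at 28 d (log2 2.77) and smallest among the libraries with 30 members in control (log2 0.74). At 14 d the 4 Crabp1 UMIs came from 2 cells. Of the 88 Crabp1 UMIs at 60 d, 36.4% lay in 1 cell, and 171 CPM remained without it. Without mural-marked cells the log2 ratio of Crabp1 at 60 d was 0.31, and the intervals of the groups met (142 to 245 and 140 to 163 CPM).

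For Mmp3, control members and the other control fibroblasts lay close, at 156 and 139 CPM (log2 0.17, -0.00 to 0.33). At 7 d it was at 667 against 61.2 CPM, at 14 d 3389 against 63.6, at 28 d 4711 against 65.6, and at 60 d 24.4 against 26.9 CPM. A single cell held 72.9% of the Mmp3 UMIs of 28 d, and without it the members stood at 1277 CPM. Mmp3 was therefore higher in Cyp26b1 fibroblasts at 7, 14 and 28 d, whereas the interval of the log2 ratio included 0 in control and at 60 d (-1.38 to 0.88). The 251 Mmp3 UMIs of 14 d came from 5 cells.

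Igfbp2 was at 77.9 CPM in control members and at 677, 187 and 146 CPM at 7, 28 and 60 d, against 13.6, 14.3, 20.1 and 14.0 CPM without Cyp26b1. At 14 d no Igfbp2 UMI was seen in either group, which by the Poisson interval allows up to 49.8 CPM in the 10 members. It was concentrated in few cells, with 10.1% of control members and 31.6% of 7 d members holding a UMI, and 1 cell supplying 83.1% of the UMIs at 28 d and 75.0% at 60 d. All 4 markers were thus higher in members at 7 and 28 d, and the others without Mmp3 in control and at 60 d. For Crabp1 at 60 d this rested on few cells. The markers were proposed with these data known, so their levels are a description and no check of the label papillary-like.

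**Figure D2:**
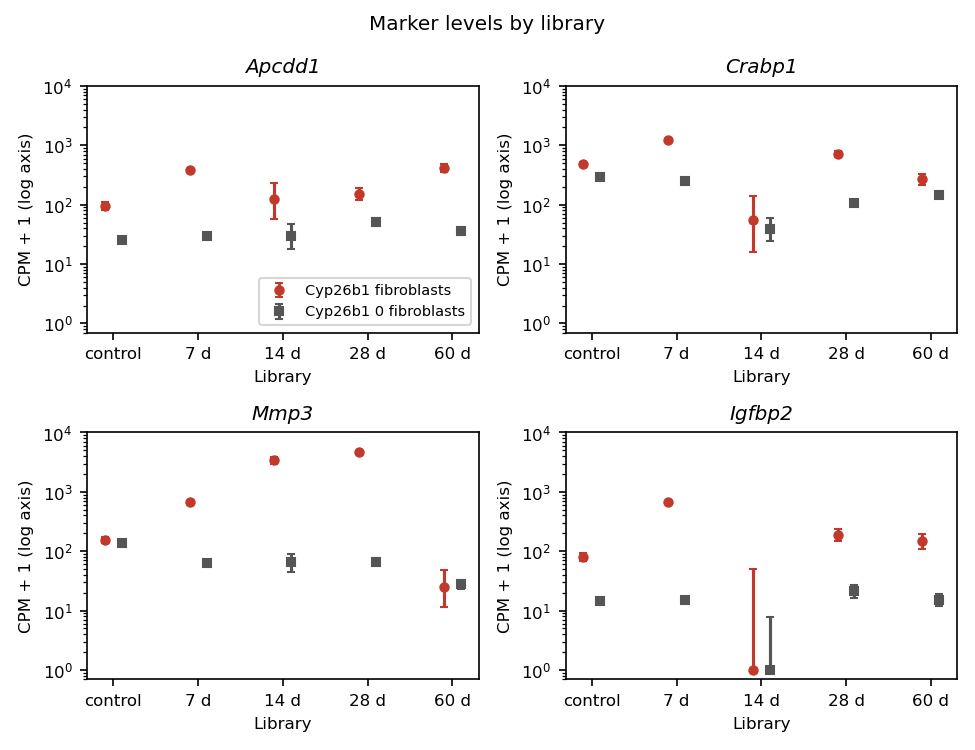
Levels of the 4 markers that the rule did not use (CPM + 1, log axis) in Cyp26b1 fibroblasts (red circles) and in gated fibroblasts with no Cyp26b1 UMI (grey squares), by library; bars are exact 95% Poisson intervals. Apcdd1 of members stood above the other fibroblasts in every library, whereas Mmp3 lay together with them in control (156 and 139 CPM) and at 60 d (24.4 and 26.9 CPM).

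At 7 d the markers stood higher in cells with more Cyp26b1. From 0, 1, 2, 3 to 5 and 6 or more Cyp26b1 UMIs, Apcdd1 ran 28.6, 60.3, 83.6, 297, 607 CPM. Crabp1 ran 252, 324, 472, 834, 1867 CPM and Igfbp2 14.3, 55.2, 60.7, 506, 1113 CPM over the same steps. Lum, the keratan sulfate proteoglycan lumican, which was not among the markers, ran 674, 919.8, 1284, 3354, 6534 CPM. Sfrp2, a secreted Wnt antagonist of deeper dermis, went the other way in the top step, with 746, 852, 1106, 1047, 249.7 CPM. In control Apcdd1 ran 24.8, 51.0, 73.0, 92.1, 136 CPM and Igfbp2 13.6, 57.1, 63.2, 67.9, 120.4 CPM over these steps, both also higher with more Cyp26b1. The same steps gave 291, 416, 330.0, 572, 584 CPM for Crabp1, 1070, 942, 917, 1023, 1095 CPM for Lum and 139, 161, 149, 164, 152 CPM for Mmp3, so that Lum and Mmp3 were nearly level in control. The share of mural-marked cells also went up along the steps, from 6.61% to 40.0% in control and from 6.41% to 32.2% at 7 d.

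**Figure D3:**
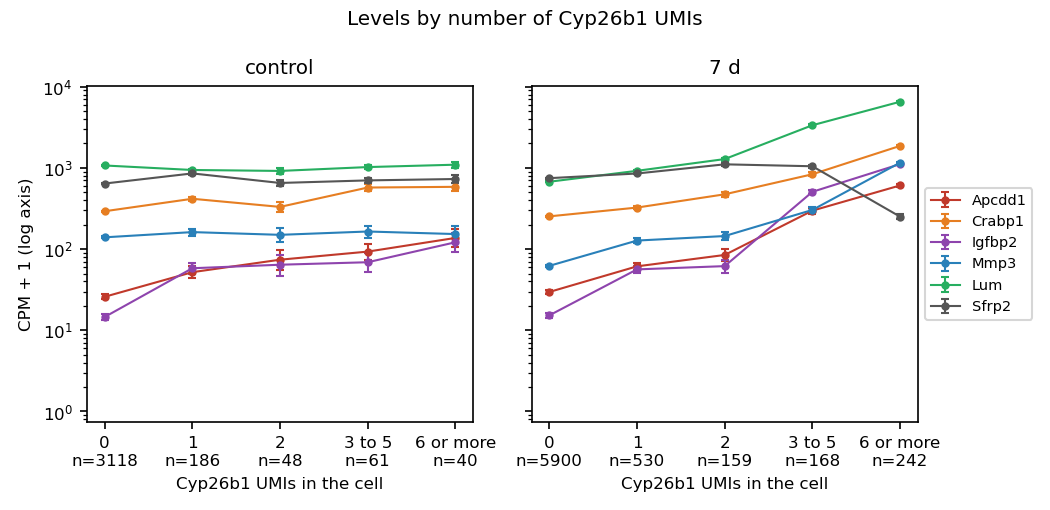
Level (CPM + 1, log axis) of 6 genes in gated fibroblasts grouped by their number of Cyp26b1 UMIs, in control (left) and at 7 d (right), with exact 95% Poisson intervals and cell numbers below each step. At 7 d Lum reached 6534 CPM and Igfbp2 1113 CPM in the top step while Sfrp2 was at 249.7 CPM, and in control the lines of Lum, Sfrp2 and Mmp3 were nearly flat.

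Co-occurrence of the markers differed in the same way between libraries. At least 2 of the 4 were found in 34.9% of control members (27.3 to 43.1) and 54.1% of those at 7 d (49.9 to 58.3), against 20.6% and 19.4% of gated fibroblasts without Cyp26b1. At 28 and 60 d it was 40.4% and 26.7% of members, against 7.72% and 12.97%. All 4 were found in 113 of the 569 members at 7 d (19.9%) and in 7 of 149 in control (4.70%). No marker was found in 101 members at 7 d and 38 in control. Members were deeper than the other fibroblasts in these 4 libraries, and the part of depth in these shares was not tested.

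Splitting the members by how many of the 4 markers they held, with mural-marked cells kept apart, showed what went with them. This split was made after the data had been seen and uses the markers, so their own levels in it are not a result. Lum, Slpi and the other genes below that the naming rule did not pick were chosen after their values had been seen. At 7 d, 164 unmarked members held 3 or 4 markers, 83 held 2 and 179 held 0 or 1. Lum stood at 9095 CPM in the marker-rich cells, 1001 CPM with 2 markers and 706 CPM with 0 or 1. Slpi, an inhibitor of leukocyte elastase, was at 1891, 7.11 and 8.55 CPM. Twist2, a transcription factor of the dermis, was at 299, 61.9 and 63.9 CPM.

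Sectm1b (361 against 9.69 CPM), Cyp4b1, a cytochrome P450 (504 against 3.42 CPM), and F13a1, the A chain of coagulation factor XIII (369 against 1.71 CPM), were likewise high in the marker-rich cells. Several genes of adventitial and reticular fibroblasts were low there: Sfrp2 at 267 against 1438 CPM, Pi16, a peptidase inhibitor of adventitial progenitors, at 11.3 against 117 CPM, and Myoc at 114 against 1139 CPM. The same side was seen for Sfrp2, Pi16 and Myoc in the 14 marker-rich cells of control (5.15 CPM, no UMI and 155 CPM, against 1233, 94.4 and 1292 CPM). Slpi was at 10.3 CPM in those 14 cells, so its high level was seen at 7 d and not in control. The 143 mural-marked members of 7 d also held Lum (3001 CPM), Slpi (517 CPM) and Mmp3 (441 CPM).

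**Figure D4:**
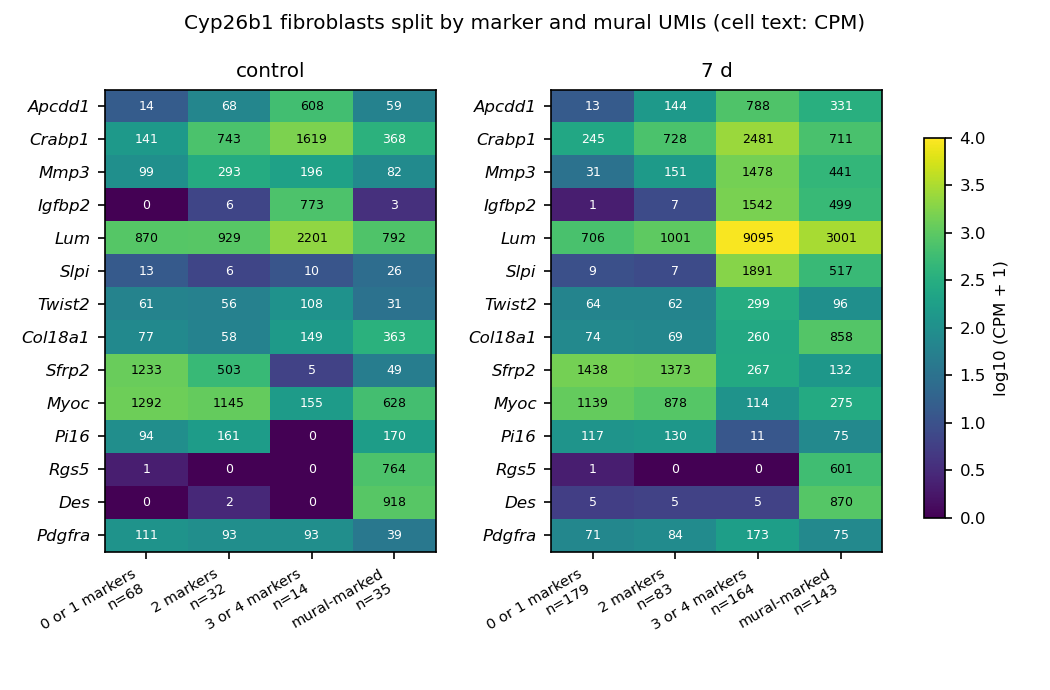
Level of 14 genes (cell text, CPM; colour, log10 of CPM + 1) in Cyp26b1 fibroblasts of control (left) and 7 d (right), split by the number of Apcdd1, Crabp1, Mmp3 and Igfbp2 found, with mural-marked cells apart. At 7 d the 164 marker-rich cells stood at 9095 CPM of Lum and 1891 CPM of Slpi, and Rgs5 and Des, which helped to set the mural mark, stood at no more than 5.23 CPM outside the mural-marked columns.

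Against gated fibroblasts without Cyp26b1, 0.984% of 4368 genes were at least 2-fold higher and 0.343% at least 2-fold lower in control members. The shares were 2.94% and 1.39% of 4592 genes at 7 d, 14.7% and 8.07% of 4945 at 28 d, and 7.2% and 4.53% of 4791 at 60 d, where the values come from 47 and 30 cells. With mural-marked cells left out they were 0.532% and 0.439% in control and 2.62% and 1.22% at 7 d. The 10 members of 14 d gave 24.6% and 14.4% of 4769 genes. In the 4 libraries with at least 30 members together, 9 of 3815 genes were at least 2-fold higher (0.236%) and 6 at least 2-fold lower (0.157%). With the highest cell of each gene left out, the split was 6 higher and 9 lower, and with median-of-ratios scaling 8 and 8. Genes were named from the 12 highest and 8 lowest mean log2 ratios, among those on the same side in each of the 4 libraries, whatever their intervals. Genes compared had at least 20 CPM on average over the groups.

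Col7a1, the collagen of anchoring fibrils, was among the highest genes, at 30.8 against 10.6 CPM in control, 129 against 11.6 CPM at 7 d, 531 against 42.5 CPM at 28 d and 229 against 15.9 CPM at 60 d. Prdm1, a transcriptional repressor used as a papillary lineage marker, was at 56.1 against 11.5 CPM in control, 85.7 against 8.43 CPM at 7 d, 128 against 14.6 CPM at 28 d and 48.8 against 3.87 CPM at 60 d. Without mural-marked cells its log2 ratio was 0.81 in control and 3.32 at 7 d, from 2.29 and 3.35 with them. At 60 d, 54.7% of the Col7a1 UMIs lay in 1 cell, and 104 CPM remained without it.

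Wnt5a, a non-canonical Wnt ligand, was at 24.8 against 6.06 CPM in control, 48.8 against 7.28 CPM at 7 d, 446 against 25.5 CPM at 28 d and 36.6 against 12.05 CPM at 60 d. Nkd2, an intracellular Wnt antagonist, was at 19.2 against 7.95 CPM in control, 57.2 against 11.5 CPM at 7 d, 83.3 against 10.2 CPM at 28 d and 128 against 9.89 CPM at 60 d. Both were thus higher in the Cyp26b1 fibroblasts in each of these libraries, with log2 ratios of 2.73 (Wnt5a) and 2.32 (Nkd2) at 7 d without mural-marked cells, and of 1.70 and 0.95 in control. F13a1 had log2 ratios of 2.69, 5.46, 2.73 and 7.00 in the same order, with all 9 UMIs of 60 d in 1 cell. Cyp4b1 ran from 0.66 at 60 d, from 1 UMI in a mural-marked cell, to 5.18 at 7 d, and Mmd from 0.78 in control to 5.31 at 28 d. The interval of Cyp4b1 included 0 at 60 d (-4.80 to 3.51) and in control (-0.09 to 2.69, from 6 UMIs). That of Mmd included 0 in control (-1.58 to 2.47, from 3 UMIs), so the side of both is open there.

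Cox4i2, a subunit of cytochrome c oxidase known in pericytes, and Vtn, the adhesive glycoprotein vitronectin, rested largely on the mural-marked cells at 7 d. They did so less in some other libraries. Cox4i2 was at 173 against 10.9 CPM at 7 d, and its log2 ratio went from 3.99 to 0.61 without those cells. In control it went from 3.77 to 1.01, and at 28 d only from 4.58 to 3.17. At 60 d too few Cox4i2 UMIs were left for a ratio. Vtn went from 3.90 to 0.50 at 7 d and from 3.11 to 0.71 at 28 d. It went only from 3.97 to 2.95 in control and from 3.76 to 3.65 at 60 d. Cpe, which trims peptide hormones, went from 2.49 to 0.80 in control.

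Among the lowest genes were matrix and chemokine genes of other fibroblasts. Smoc2, a matrix protein that binds calcium, was at 168 against 585 CPM in control, 180.2 against 534 CPM at 7 d, 33.8 against 415 CPM at 28 d and 342 against 829 CPM at 60 d. Cxcl14, a chemokine, was at 616 against 1293 CPM in control, 725 against 1734 CPM at 7 d, 113 against 2480 CPM at 28 d and 1150 against 2460 CPM at 60 d. Cxcl9, an interferon-induced chemokine, was at 102 against 280.0 CPM in control, 104 against 391 CPM at 7 d, 2.25 against 195 CPM at 28 d and 109.8 against 309 CPM at 60 d, from 1 UMI in members at 28 d. Pla2g2a, a secreted phospholipase, was level in control (-0.05) and lower at 7 d (533 against 1062 CPM), 28 d (log2 -5.56) and 60 d (log2 -1.48), and was at 0 UMIs in the 10 members of 14 d. Col4a5, Rida and Has1 had log2 ratios below 0 in all 4, at -0.57, -0.41 and -0.56 log2 in control and -2.47, -1.93 and -2.61 at 60 d. The control interval of Rida included 0 (-0.98 to 0.11).

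**Figure D5:**
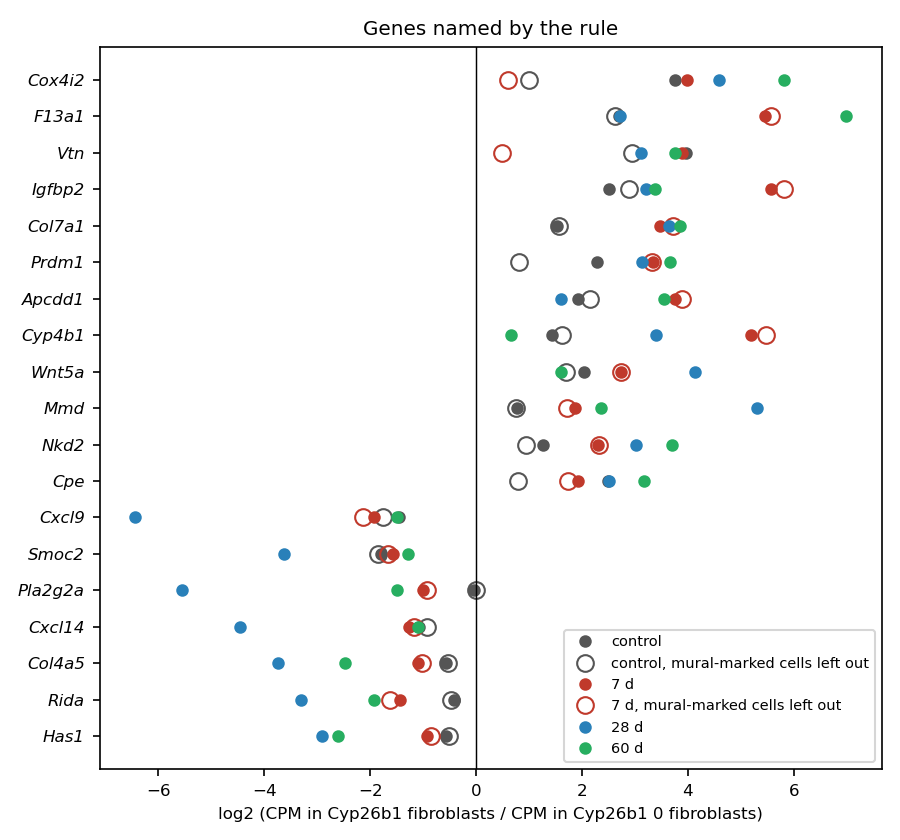
Log2 ratio of CPM in Cyp26b1 fibroblasts to CPM in gated fibroblasts with no Cyp26b1 UMI for genes named by the rule, 1 filled point a library with at least 30 members. Open circles leave out mural-marked cells in control and at 7 d: they lie for Cox4i2 at 0.61 and 1.01, and stay close to the filled points for Col7a1, Apcdd1 and Nkd2.

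By gene group, the papillary list held 25 genes, of which 10, 12, 11 and 13 passed the level filter in control and at 7, 28 and 60 d. Over all genes tested, 0.984%, 2.94%, 14.7% and 7.2% were at least 2-fold higher in these libraries. In the list the count was 4 of 10, 10 of 12, 9 of 11 and 9 of 13. Its medians were 0.68, 2.47, 2.77 and 1.11 against 0.02, 0.06, 0.29 and 0.12 over all genes tested. At 14 d the count was 6 of 11, where 24.6% of all genes were past 2-fold upward. 4 of the list's genes are the proposed markers, which were picked with these data known. The whole list was also chosen with earlier results of these data known, so none of its counts is independent evidence. Of the list without those 4 markers, 2 of 6 were higher in control, 5 of 7 at 28 d and 7 of 9 at 60 d. Without mural-marked cells Prdm1 in control (log2 0.81), Col18a1 at 28 d (from 2.97 to 0.80) and Pdpn and Rspo1 at 60 d (0.82 and 0.39) were under 2-fold, so these counts rest in part on such cells. At 7 d, 6 of 8 were higher, namely Pdpn (podoplanin, 172 against 77.6 CPM), Entpd1 (the ectonucleotidase CD39, 139 against 22.0 CPM), Rspo1 (a Wnt enhancer, 82.6 against 17.9 CPM), Col18a1 (a basement membrane collagen, 335 against 69.9 CPM), Prdm1 and Col7a1. The same 10 of the 12 genes were past 2-fold at 7 d without mural-marked cells. In control, Pdpn was at 160.3 against 139 CPM and Entpd1 at 21.7 against 15.8 CPM.

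The counts of the next lists are to be read against the shares over all genes, 0.984% higher and 0.343% lower in control and 2.94% higher and 1.39% lower at 7 d. Retinoid genes other than Crabp1 were mostly level or sparse. At 7 d, 2 of 4 genes of metabolism and transport passed 2-fold, Crabp1 and Rbp4, a retinol carrier (216 against 104 CPM), and of 13 receptors and targets, Rarres1 (118 against 24.7 CPM) and Rarres2, both retinoid-induced genes (1754 against 877 CPM), were higher and Tgm2 lower. Dhrs3, which returns retinaldehyde to retinol, was at 30.6 against 47.3 CPM. In control none of 5 and none of 10 passed. At 60 d, Aldh1a1, which makes retinoic acid, was at 143 against 17.6 CPM in 13 of 30 cells.

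Of the Wnt antagonists and targets, 1 of 11 genes was at least 2-fold higher in control (Apcdd1) and 4 of 12 at 7 d, with Nkd2, Kremen1 (73.1 against 34.6 CPM), a receptor for DKK proteins, and Twist2 (155 against 47.8 CPM) besides Apcdd1. For BMP signalling, Grem1, a secreted BMP antagonist (99.4 against 2.66 CPM), was among the genes that were higher at 7 d, and Bmp5 was lower. In the insulin-like growth factor list, Igfbp2 was higher and Igf1 (248 against 547 CPM) lower, of 9. Among proteases and inhibitors, Mmp3 was the 1 higher gene of 12 at 7 d. Basement membrane and junction genes gave 3 of 17 higher (Col7a1, Col18a1 and Tnn) and 2 lower (Col4a5 and Fbln2), and collagen assembly genes 3 of 21 higher (Lum, 4317 against 674 CPM; Loxl1, a collagen and elastin crosslinker, 303 against 139 CPM; Tnc) and 2 lower (Fn1 and Postn, 421 against 985 CPM). The adventitial list had 2 of 14 higher, Efemp1 (443 against 106 CPM) and Apod (3586 against 1443 CPM), and Pi16 lower (70.8 against 162 CPM), with a median of -0.56 against 0.06 over all genes tested.

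Members of each irradiated library were set against members of control, and all 3 comparisons share that control. At 7 d, 3.94% of 4599 genes were at least 2-fold higher and 1.98% at least 2-fold lower, against 2.44% and 1.27% in fibroblasts without Cyp26b1. Without mural-marked members the shares were 4.17% and 2.47%. Cyp4b1 was at 223 against 3.03 CPM in 7 d and control members (log2 6.20, 5.08 to 7.65) and Slpi at 808 against 13.1 CPM (log2 5.94, 5.39 to 6.56). Sectm1b was at 165 against 6.57 CPM (log2 4.65). In fibroblasts without Cyp26b1 the log2 ratio of Slpi was -0.25, that of Sectm1b -0.63 and that of Cyp4b1 2.46.

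RT1-T24-3, a class I histocompatibility gene, and Abcb1a, a drug efflux pump, were higher in both kinds of fibroblast: log2 5.49 in members and 5.41 in the others for the first, and 5.29 and 5.46 for the second. RT1 class I genes are near-identical copies, so how their reads were split is uncertain. The lowest genes were Cxcl3 (181 against 2149 CPM, log2 -3.57) and Cxcl2, neutrophil-attracting chemokines, Il1rl1, the receptor of interleukin 33 (29.0 against 271 CPM), Clca5 and Ly6d (20.2 against 213 CPM). Cxcl3, Il1rl1, Clca5 and Ly6d were also lower in the other fibroblasts (log2 -2.72, -2.25, -2.48 and -3.74), whereas Cxcl2 was at -0.17 there and -2.82 in members, with 31.4% of its UMIs of 7 d in 1 cell.

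Of the p53 target list, 9 of 17 genes were at least 2-fold higher in 7 d members (median 1.01 against 0.04 over all genes tested). Cdkn1a, the cell cycle inhibitor p21, was at 274 CPM in control members and, after 7, 14, 28 and 60 d, at 907, 702, 829 and 339 CPM. Mdm2, the ubiquitin ligase that limits p53, was at 109, 441, 149, 214 and 256 CPM. Within 7 d, both were lower in the members than in the other fibroblasts (1078 and 721 CPM), and lowest in the marker-rich members (712 and 307 CPM, against 1190 and 639.7 CPM with 0 or 1 marker). The other fibroblasts also gave 9 of 17 higher against control, with a median of 1.47. Nr4a1, which encodes the nuclear receptor Nur77, was at 237, 384, 351, 248 and 607 CPM in members and 174, 279, 298, 314 and 217 CPM in the others.

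Of 22 interferon response genes, 14 were at least 2-fold higher at 7 d, with a median of 1.26 (11 of 20 and 1.17 in the others). Isg15, a ubiquitin-like protein, was at 216 against 24.8 CPM and Ifitm1 at 805 against 294 CPM, 7 d against control. Chemokines and cytokines went the other way in 8 of 13, with 1 higher, Ccl19 (129.5 against 18.2 CPM), which attracts dendritic and T cells. The monocyte chemokine Ccl2 was at 3792 against 14043 CPM. Of 23 immediate early genes, 6 were higher in members and 12 in the other fibroblasts, led by Fos (3959 against 1732 CPM in members). The papillary list had 8 of 13 higher in members, 4 of them proposed markers and the rest Rspo1, Entpd1, Col18a1 and Col7a1, and 0 of 7 in the others, where Mmp3 was lower.

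At 28 d, 17.8% of 4864 genes were at least 2-fold higher than in control members and 8.68% at least 2-fold lower, from 47 cells of which 22 were mural-marked. The other fibroblasts gave 6.07% and 5.36%. The split was 867 higher and 422 lower, but 491 and 739 with median-of-ratios scaling and 560 and 528 with the highest cell of each gene left out. The median of all genes tested was 0.26, and log2 values of 28 d are to be read against it. Mural genes were higher in 8 of 8 tested (median 2.62) and basement membrane genes in 10 of 17. Col4a1, the main basement membrane collagen, was at 3882 CPM in members of 28 d, 746 in control and 843 in the other fibroblasts of 28 d, with UMIs in 37 of 47 cells. In the 25 unmarked members Col4a1 was at 1479 CPM and in the 22 mural-marked ones at 6221 CPM. Col18a1 was at 1529 against 136 CPM and Wnt5a at 446 against 24.8 CPM, and in unmarked members at 151 and 699 CPM. Proliferation genes were higher in 9 of 11. Top2a and Mki67, genes of dividing cells, were at 146 and 85.6 CPM against 7.59 and 12.6 CPM, each from 7 cells, and the unmarked members held 159.8 and 77.6 CPM.

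Collagenase Mmp13 was at 876 CPM, with 99.5% of its UMIs in 1 cell, and Mmp10 at 124 CPM, with 81.8% in 1 cell. Of the named genes, Prss35, Lcn2, Calca, Mmd and Tnn were highest, with 49.2%, 65.5%, 58.0%, 35.2% and 38.6% of their UMIs in 1 cell each, so their levels in members rest on few cells. All were also higher than in control in the other fibroblasts, at log2 3.87, 7.68, 3.11, 2.79 and 3.38 in that order. Lcn2 stood at 289 CPM in the other fibroblasts of 28 d and at 189 CPM in members. Sfrp4 (13.5 against 984 CPM), Sfrp2 (18.0 against 689 CPM), secreted Wnt antagonists, Cck (9.01 against 460.2 CPM), Cxcl9 (2.25 against 102 CPM) and Ptx3 (40.5 against 1353 CPM) were lowest. In the other fibroblasts Sfrp2 and Cck were level or slightly higher than in control (log2 0.03 and 0.36). With members taken from 1 Cyp26b1 UMI upward, the log2 ratios of Sfrp4, Sfrp2 and Cck were -3.12, -1.85 and -1.47, in place of -6.19, -5.26 and -5.67. The adventitial list was lower in 10 of 13.

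At 60 d, 12.7% of 4748 genes were at least 2-fold higher and 8.85% at least 2-fold lower than in control members, against 5.45% and 7.47% in the other fibroblasts. The split of 603 higher and 420 lower became 411 and 596 with median-of-ratios scaling and 314 and 589 with the highest cell of each gene left out, and the median of all genes tested was 0.11. The 30 cells held Apod, an apolipoprotein, at 39397 CPM in 21 cells, against 5429 CPM in control and 3167 CPM in the other fibroblasts of 60 d, with 16.1% of its UMIs in the highest cell. Ptch1 and Gli1, targets of hedgehog signalling, were at 122 and 39.7 CPM in 17 and 10 cells, against 21.5 and 12.3 CPM without Cyp26b1. Ngfr, the low-affinity neurotrophin receptor, was at 73.2 against 12.7 CPM in 11 cells.

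Highest against control members at 60 d were Ccl11, an eosinophil chemokine (116 against 1.52 CPM, in 10.0% of cells), Kcnmb4 (54.9 CPM, with 0 UMIs in control members), RT1-T24-3 (113 against 8.60 CPM), St6gal1, a sialyltransferase (70.2 against 5.56 CPM, in 46.7% of cells) and Vwa1, a matrix protein (195 against 16.7 CPM, in 53.3%). Cxcl3 (3.05 against 2149 CPM), Cxcl2, Cyp1b1, a cytochrome P450 (6.10 against 238 CPM), Il1rl1 and Rgs5 were lowest, each with 1 to 3 UMIs at 60 d. In the other fibroblasts of 60 d these lowest genes were also lower than in control. Log2 ratios there were -6.79, -3.97, -3.60, -8.19 and -2.22 in that order, with Il1rl1 and Rgs5 at 0 CPM. RT1-T24-3 was higher there too (log2 3.32, and 3.71 in members). St6gal1 (1.82 and 3.66), Vwa1 (1.23 and 3.55) and Ccl11 were higher by less than in members. The interval of Kcnmb4 included 0 there (-1.57 to 1.51). Rgs5 is a gene of the mural mark, which 3 of 30 members carried at 60 d and 35 of 149 in control. Immediate early genes were higher in 12 of 23, with Fos at 8852 against 1732 CPM.

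The 10 members of 14 d are given as values only. Col4a1 stood at 4442 CPM with UMIs in 10 of 10 cells, Col18a1 at 3416 CPM in 9 cells and Wnt5a at 540.1 CPM in 6 cells, where the 79 fibroblasts without Cyp26b1 held 861, 231 and 1.82 CPM. The 7 unmarked members of 14 d were at 1145, 312 and 416 CPM. Cox4i2 was at 1566 CPM and the 3 matrix genes of the gate at a median of 0.945% of UMIs, against 4.10% in the others. Pla2g2a, Has1 and Rida had no UMI in these 10 cells.

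Fibroblasts that the rule leaves out held Cyp26b1 more often than gated fibroblasts. At 7 d, 172 of 339 fibroblasts with Edn3 or Rspo3 had 2 or more Cyp26b1 UMIs (50.7%, 45.3 to 56.2) and 34 of 129 with Slc26a7 (26.4%, 19.0 to 34.8). Against the Edn3 Rspo3 cells, the members were lower in Apcdd1 (388 against 888 CPM), Crabp1 (1228 against 3776 CPM) and Mmp3 (667 against 1148 CPM), and higher in Igfbp2 (677 against 514 CPM). The papillary list gave 0 of 16 at least 2-fold higher and 8 lower, where the background over 4794 genes was 2.15% and 2.07%. In control, with 42 Edn3 Rspo3 cells, it was 1 of 14 higher and 3 lower, with a background of 2.78% and 2.48%. Members were higher in Apod (3586 against 395 CPM), Sfrp2 (685 against 98.0 CPM) and Myoc (520.3 against 103 CPM) and lower in Crabp2 (9.19 against 89.6 CPM), Wnt10a (4.16 against 55.1 CPM) and Prlr (13.5 against 106 CPM).

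Against the Slc26a7 cells, members were higher in Mmp3 (667 against 17.7 CPM) and Igfbp2 (677 against 170.0 CPM) with Crabp1 at 1228 against 1420 CPM. The papillary list split, with 7 of 16 higher (Mmp3, Igfbp2, Pdpn, Entpd1, Col18a1, Dpp4 and Gpx3; background 7.72%) and 5 lower (Col13a1, Rspo1, Lef1, Trps1 and Tfap2a; background 5.2%). In control, with 45 Slc26a7 cells, 5 of 14 were higher and 3 lower, with a background of 6.87% and 10.8%. Lef1, a Wnt-responsive transcription factor, was at 5.89 against 77.9 CPM and Igfbp3 at 343 against 5778 CPM. The markers proposed for the Cyp26b1 fibroblasts were also found at 7 d in the Edn3 Rspo3 cells, which carried more of 3 of the 4.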

How the data were processed

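Skin of SD rats was measured in 5 droplet-based single-cell libraries. The deposited counts are UMIs per gene and barcode, not normalized, which the authors made with Cell Ranger 5.0.0 and STAR on build Rnor_6.0, with Seurat 3.1.1 also named in the submitters' processing notes. Their 32623 gene rows were summed to 30017 symbols. Libraries held 70073362 to 139566348 UMIs. Reads of near-identical genes cannot be told apart in these sums.

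The members and all gene lists were chosen with earlier results of these data known. UMIs were summed over members, and over gated fibroblasts with no Cyp26b1 UMI, and scaled to 1000000 (CPM). Genes needed a mean of 20 CPM over both groups. Ratios carry the exact conditional binomial 95% interval, levels the exact Poisson interval and shares the Clopper-Pearson interval, all for counting error only. A count of 0 was set to 3 counts in ratios. Cells were not treated as replicates, and no test was made. The intervals and ratios were tested on simulated data, drawn as Poisson counts without spread between cells. That run checks the calculation only and does not cover genes whose UMIs lie in few cells.

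Named genes were the 5 proposed markers, and the 12 highest and 8 lowest mean log2 ratios on the same side in every library with at least 30 members, with at least 50 CPM and a UMI in 10% of cells in either group. Further named were the 5 highest and lowest genes of each irradiated library against control, Nr4a1, Cdkn1a, Mdm2, list members of 20 CPM or more in control members for the retinoid, Wnt, BMP, IGF, protease and basement membrane lists, and the 2 most abundant genes of each other list. Of the list genes, mainly those past 2-fold are printed with values. Mitochondrial, ribosomal protein, unnamed and rule genes were left out, and a few genes are not reported here. The lists hold 501 symbols, of which 478 were found.

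Doublets were scored against 2 simulated doublets per barcode (2000 variable genes, 30 principal components), and were not removed except in the alternative that leaves out the highest 6% of scores. Other alternatives changed the Cyp26b1 limit, the scaling, the level filter, the mitochondrial limit and the depth by thinning, or left out 1 library. Cells with at least 3 mural UMIs, a stricter matrix gate and the highest cell of each gene were alternatives chosen after seeing the data. Promoter sequences are from RefSeq. Python 3.11.15 was used with numpy 2.4.6, scipy 1.17.1, pandas 2.3.3, scikit-learn 1.9.0 and matplotlib 3.10.9.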

Additional observations from a re-analysis of the deposited data

Results flagged for a closer look

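Several genes differed between irradiated and control members in a way that the fibroblasts without Cyp26b1 did not share. The values below are the log2 ratio of irradiated to control in members minus the same ratio in those fibroblasts, both with the same control library, and the difference was not tested. At 7 d it was 6.19 for Slpi (5.94 in members and -0.25 in the others), 5.28 for Sectm1b (4.65 and -0.63), 3.28 for Mmp3 (2.10 and -1.18) and 1.54 for Crabp1 (1.33 and -0.21). At 28 d it was 6 for Mmp3 (4.92 and -1.08), with 72.9% of the Mmp3 UMIs of members in 1 cell. Crabp1 differed by 2.03 at 28 d (0.57 and -1.46). Cck, the precursor of cholecystokinin, differed by -6.03 at 28 d (-5.67 and 0.36), from 4 UMIs in members. With members taken from 1 Cyp26b1 UMI upward, the ratio of Cck in members was -1.47. Fibroblasts that the rule leaves out shared part of the 7 d differences. Crabp1 in Edn3 Rspo3 cells was at 3776 CPM at 7 d against 452 CPM in control, and Mmp3 at 1148 against 135 CPM. In Slc26a7 cells Crabp1 was at 1420 against 241 CPM, while Mmp3 was lower at 7 d (17.7 against 49.0 CPM).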

How the results depend on the processing

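With 47 and 30 members at 28 and 60 d and 10 at 14 d, folds there rest on few cells, and no alternative replaces a second library. No paired analysis was possible because each group holds 1 library. The share of gated fibroblasts that were members moved most with the Cyp26b1 limit. With 1 UMI or more it was 9.70, 15.7, 18.6, 13.1 and 8.26% in the order control, 7, 14, 28 and 60 d. With 3 or more it was 2.92, 5.86, 5.27 and 2.98% in control and at 7, 28 and 60 d, and after thinning to 4000 UMIs it was 5.15, 11.3, 12.7 and 7.26%. Alternatives chosen after seeing the data gave 3.56, 6.64 and 4.50% in control and at 7 and 28 d without mural-marked cells. A gate of 2% matrix UMIs, planned for the shares and added later for the other comparisons, gave 7.41% at 7 d and 3.28% at 14 d. Of 45 alternative shares, 27 lay inside the interval of the reported share. The 15 genes past 2-fold in all 4 libraries became 4 with 1 Cyp26b1 UMI, 25 with 3, 27 after thinning to 4000 UMIs and 52 with a filter of 10 UMIs over both groups. Leaving out 1 library gave 16 to 48 genes, with 48 without control and 26 without 60 d. With the filter of 10 UMIs, genes past 2-fold against control members numbered 1700 at 7 d, 2875 at 28 d and 2379 at 60 d, in place of 272, 1289 and 1023. That filter admits more genes of low level. The median of the keratinocyte list at 28 d against control turned from -1.60 to 0.97 with the highest doublet scores left out. The median of the proliferation list at 60 d against control turned from 1.59 to -0.24 with the highest cell of each gene left out and to -0.47 with 3 Cyp26b1 UMIs. The cause was not tested for these turns. Named genes kept the direction of their reported value in every alternative that gave one. Without mural-marked cells Cox4i2 and Cyp4b1 gave no mean, because 60 d had no ratio. Means were compared, and single libraries could change side, as Pla2g2a did in control without those cells (-0.05 to 0.01). Of 277 values against the other fibroblasts, 272 stayed within 1 SD between libraries of the reported mean, a wide band for genes such as Mmp3 (SD 2.98). Against control members, 232 of 265 lay inside the reported interval.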
